A study of Aspergillus nidulans with 4 samples.

Results

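The 102 genes described here are the protease and peptidase genes of *Aspergillus nidulans*, out of 10930 genes listed in an RNA-seq comparison of a *pkaA* deletion strain with its parent. They were taken by the words protease, proteinase or peptidase in the function text deposited beside each gene, and 22 genes whose text also held proteasome, inhibitor or ubiquitin were left out, as were 5 genes set aside by number, 2 of them proteases and 3 of them regulators. Membership used no expression value. The Δ*pkaA* strain (FGSC A1358) lacks *pkaA*, which encodes the catalytic subunit of protein kinase A, and the WT is its isogenic parent (FGSC A1405). Each group is thus 1 strain, and what other markers the strains carry is not given in the sources used here. There were 2 samples per strain, 4 in all, from liquid cultures in YGV, which contains 2% glucose and 0.5% yeast extract and is a rich medium, harvested after about 20 h of main culture at 28°C and 250 rpm. The sample labels put the seed culture at 12 h and pH 3.3. The study's methods give a slightly longer and less acid seed culture, and a main culture at a much higher pH than the seed. They also give 2 technical replicates for each sample.

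Proteases cut peptide bonds in proteins, and peptidases in the narrower sense act on shorter chains. Endopeptidases cut within a chain, whereas aminopeptidases and carboxypeptidases remove residues from its ends, and they are sorted by the group that attacks the bond into serine, aspartic, metallo, cysteine and threonine types. Filamentous fungi secrete some of them to digest external protein and import the resulting peptides, keep others in the vacuole, where cell proteins are turned over, and use others to process precursors in the secretory pathway and the mitochondrion. In *A. nidulans*, secreted proteases are known to respond to carbon and nitrogen supply and to ambient pH.

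The deleted gene, AN6305, was at 73.9 mean normalized counts in Δ*pkaA* mycelium and 1869 in WT mycelium. Normalized counts are reads per gene after division by the size factor of the library. The deposited values are means of these per strain, and they sum to 29312200 in Δ*pkaA* mycelium and 31012500 in WT mycelium. Below 2000 in Δ*pkaA* mycelium and 4000 in WT mycelium, the means could be resolved into whole reads of 2 libraries per strain, here called a and b. They cannot be matched to the labelled samples, and separate cultures and repeat runs of one culture cannot be told apart, so the p-values measure only the spread between these libraries. A member was called when limma, fitted over 6134 genes with an average of at least 10, gave an adjusted p below 0.05 and the deposited means differed at least 2-fold.

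Of the 102 members, 2 were listed at 0 in both strains (AN6426, with a metallopeptidase domain, and AN6438, *dppIV*, a dipeptidyl-peptidase). Of the other 100, 46 could be tested, 6 had an average below 10, and 48 were of higher average but had means whose reads were not resolved in all 4 libraries. Among the 46, 9 rose and 7 fell in Δ*pkaA* mycelium. Over all genes tested, 35.4% were called in either direction, 17.1% as higher and 18.3% as lower, and the members stood close to that with 34.8%, 19.6% and 15.2%. The libraries of the strains did not overlap for 39 of the 46 members, or 84.8%, beside 83.9% of all genes tested. A further 11 tested members had an adjusted p below 0.05 with means within 2-fold, 6 of them higher and 5 lower in Δ*pkaA* mycelium. Among members with a mean of at least 10 and a single whole-read solution, where recovery sets no limit on how far the libraries differ, those of one strain were at least 2-fold apart for 0 of 31 members in Δ*pkaA* mycelium and for 5 of 60 in WT mycelium (AN3393, AN12102, AN5432, AN3403 and AN9372).

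The deposited means give the same comparison for all 100 members above 0, without a test. By the means, 18 members were at least 2-fold higher in Δ*pkaA* mycelium and 20 at least 2-fold lower, which is 38.0% in all, beside 36.5% of the 10545 genes listed above 0. For the single directions the shares were 18.0% of members, against 17.9% of all genes, for higher means, and 20.0% of members, against 18.6% of all genes, for lower means. The median log2 ratio of the members was 0.03, with quartiles at -0.66 and 0.61, and that of all genes was -0.01. The protease and peptidase genes were therefore past the limits about as often as genes in general.

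**Figure D1:**
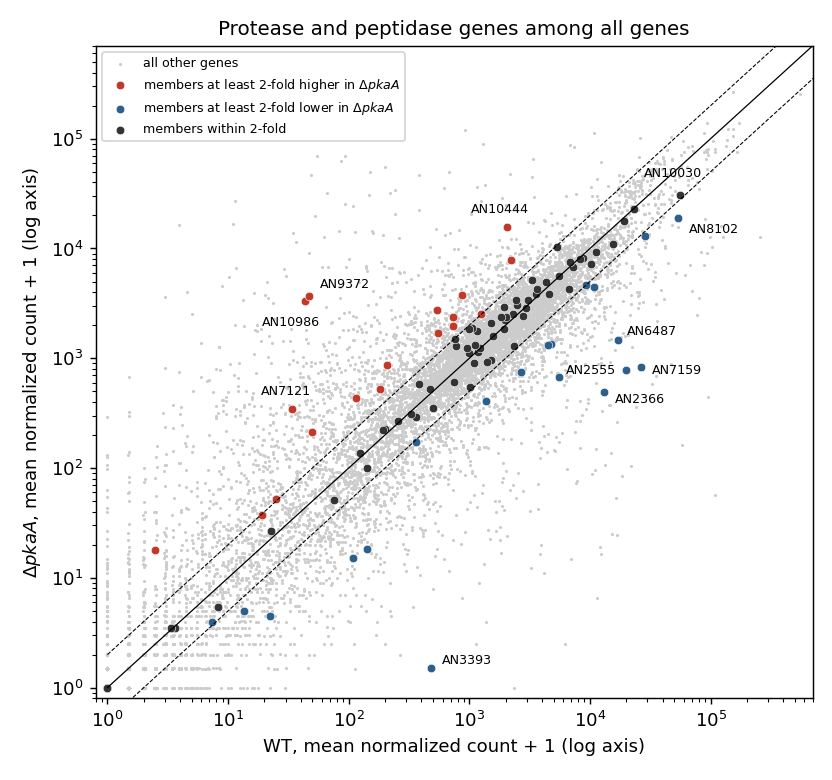
Mean normalized counts plus 1 of the 102 members (coloured and dark points) and of all other genes (grey points), Δ*pkaA* strain on the vertical axis and WT on the horizontal axis, both logarithmic, with a solid line at equality and dashed lines at a 2-fold difference. The 18 members at least 2-fold higher in Δ*pkaA* mycelium are red and the 20 at least 2-fold lower are blue, and the blue points reach much further to the right than the red ones.

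The summed level differed more than the counts of genes. The members' means summed to 324399 normalized counts in Δ*pkaA* mycelium, 1.11% of the sum over all genes, and to 462754 in WT mycelium, 1.49% of the sum, a ratio of 0.701 beside 0.945 for all genes. The 20 members with lower means held 49073.6 normalized counts in Δ*pkaA* mycelium and 199286 in WT mycelium. The 18 members with higher means held 48171.5 in Δ*pkaA* mycelium and 9642 in WT mycelium, and the 62 members within 2-fold held 227154 in Δ*pkaA* mycelium and 253826 in WT mycelium. The 66 members with an average of at least 1000 summed to 316158 in Δ*pkaA* mycelium and 453700 in WT mycelium, a ratio of 0.697 beside 0.938 for all genes of that level. The 34 members of lower average summed to 8241 in Δ*pkaA* mycelium and 9054 in WT mycelium. The 5 members with the highest means in each strain held 32.5% of the members' sum in Δ*pkaA* mycelium and 40.7% in WT mycelium. No error can be given for these sums, since reads per library were not resolved for the most abundant genes.

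**Figure D2:**
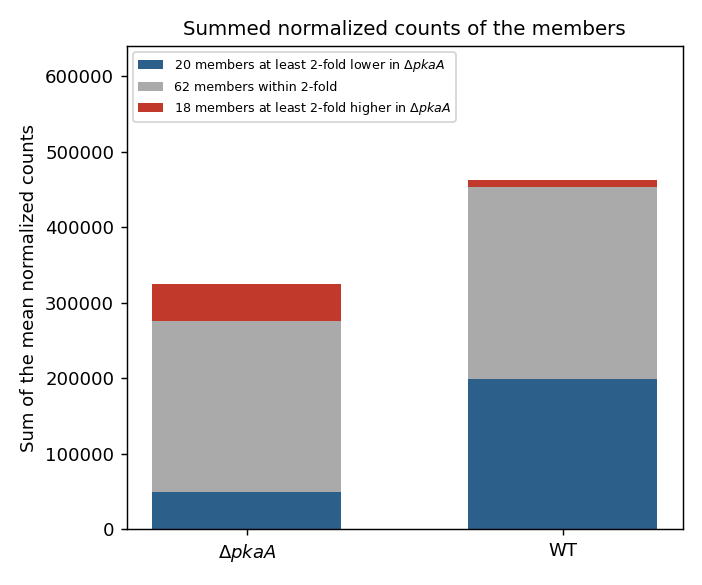
Sum of the authors' mean normalized counts of the members in Δ*pkaA* mycelium (left bar) and the WT (right bar), split into members at least 2-fold lower in Δ*pkaA* mycelium (blue), within 2-fold (grey) and at least 2-fold higher (red). The blue block is 49073.6 normalized counts in Δ*pkaA* mycelium and 199286 in WT mycelium, and the red block is 48171.5 in Δ*pkaA* mycelium and 9642 in WT mycelium.

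Per 1000 bases of gene span, introns included, AN10030 was the highest member in Δ*pkaA* mycelium with 15669 mean normalized counts, against 28801 in WT mycelium. It is a putative alkaline serine protease whose text names no place. The pepsin-like aspartic protease AN8102 led in WT mycelium and stood at 12481 in Δ*pkaA* mycelium, against 35976 in WT mycelium. AN2903, the aspartic protease known as PepE, a relative of the yeast vacuolar proteinase A, had 13503 in Δ*pkaA* mycelium and 13804 in WT mycelium. Of the other leading members in the WT, AN2366 was at 585 in Δ*pkaA* mycelium and 15618 in WT mycelium, AN0369 at 7020 in Δ*pkaA* mycelium and 15443 in WT mycelium, and AN7159 at 380 in Δ*pkaA* mycelium and 12062 in WT mycelium. The order of the levels therefore differed between the strains, with no error on it because WT means of this size come without library values.

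Among the 7 members that fell, AN3393, similar to the fungal neutral metalloprotease II, had almost no reads left. Its normalized counts were 0 and 1.02 in the Δ*pkaA* libraries, against 274 and 689 in WT libraries, that is 1 read over the Δ*pkaA* libraries and 948 over the WT. The Δ*pkaA* value was 0.00106 of the WT value, and counting error alone puts 95% bounds of 2.67e-05 and 0.0059 on that ratio. The gene lies at 855102 to 856277 of chromosome VI in the coordinates of the deposited table, whose genome release is not given. Its WT libraries were more than 2-fold apart, yet both stood far above the Δ*pkaA* libraries (log2 difference -8.26 ± 0.54, SE, limma adjusted p = 2.89e-05, n = 2 libraries each, on the log2(value + 1) scale used for every limma value below). With so few reads the size of this difference follows the pseudocount, at -5.41 with 10 and -8.96 with 0.5, and it lay between -8.92 and -7.60 with one library left out, called each time.

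The other called falls were smaller. AN3377, whose orthologs are extracellular endopeptidases that activate zymogens, the inactive precursors of enzymes, had 17.7 and 17.3 normalized counts in the Δ*pkaA* libraries, against 175 and 107 in WT libraries (log2 difference -2.90 ± 0.31, SE, adjusted p = 0.00023). AN12102 had 12.7 and 15.3 in the Δ*pkaA* libraries, against 69.9 and 145 in WT libraries (-2.76 ± 0.39, SE, adjusted p = 0.000857). Its text names serine-type endopeptidase activity but also a role in negative regulation of catalytic activity, so it may not be a protease itself. The Δ*pkaA* libraries of both genes lay close together, and the WT libraries varied more but did not overlap with them. AN1049, a putative zinc metalloproteinase, had 723 and 784 in the Δ*pkaA* libraries, against 2188 and 3161 in WT libraries (-1.80 ± 0.18, SE, adjusted p = 0.000163). AN6888, a putative extracellular aspartic protease of the aspergillopepsin type, an acid protease that fungi secrete, had 393 and 428 in the Δ*pkaA* libraries, against 1550 and 1213 in WT libraries (-1.74 ± 0.14, SE, adjusted p = 7.54e-05). Transcripts of both enzymes were still plentiful in Δ*pkaA* mycelium. AN8315, with a metallopeptidase domain, was low in both strains, with 3.92 and 3.05 in the Δ*pkaA* libraries, against 16.3 and 26.0 in WT libraries (-2.27 ± 0.44, SE, adjusted p = 0.00349). The smallest called fall was that of AN11903, with an aminopeptidase and dipeptidyl-peptidase domain, at 179 and 166 in the Δ*pkaA* libraries, against 335 and 387 in WT libraries (-1.06 ± 0.15, SE, adjusted p = 0.00101).

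The most abundant members that were lower in Δ*pkaA* mycelium are known by their means only, because WT means of this size do not resolve into reads, and they have no test. AN7159, whose orthologs are tripeptidyl-peptidases that release tripeptides from the start of a chain, had a mean of 839 in Δ*pkaA* mycelium and 26658 in WT mycelium, 31.8-fold lower. The Δ*pkaA* libraries of this gene were at 872 and 806, so the low value was present in both. AN2366, a putative trypsin-like protease with a role in cleaving NmrA, a regulator of nitrogen metabolism, had a mean of 493 in Δ*pkaA* mycelium, with libraries at 478 and 508, against 13166 in WT mycelium, 26.7-fold lower. AN2555 (*sxa2*), whose orthologs are serine-type carboxypeptidases, had a mean of 777 in Δ*pkaA* mycelium, with libraries at 746 and 808, against 19884 in WT mycelium, 25.6-fold lower. An aspartyl protease followed, AN6487, with a mean of 1458 in Δ*pkaA* mycelium, with libraries at 1537 and 1378, against 16927 in WT mycelium, 11.6-fold lower. With AN3393 these 4 were the 5 members more than 10-fold lower in Δ*pkaA* mycelium. In the coordinates of the deposited table, AN7159 lies at 828691 to 830900 of chromosome IV, AN2366 at 3702241 to 3703083 and AN2555 at 4347253 to 4349370 of chromosome VII, and AN6487 at 2271772 to 2273568 of chromosome I.

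A second tier of abundant genes differed by less. AN3493, a predicted threonine-type endopeptidase, a type best known from the core of the proteasome, had a mean of 676 in Δ*pkaA* mycelium and 5540 in WT mycelium, 8.20-fold lower. AN7231, with serine-type endopeptidase orthologs, had 1359 in Δ*pkaA* mycelium and 4786 in WT mycelium, and AN2237 (*cp1*), a putative carboxypeptidase C, had 1312 in Δ*pkaA* mycelium and 4508 in WT mycelium. The pepsin-like AN8102, at 18772 in Δ*pkaA* mycelium and 54108 in WT mycelium, was 2.88-fold lower and alone accounted for more of the difference in the summed means than any other member. Another serine-type carboxypeptidase, AN1426, had 4478 in Δ*pkaA* mycelium and 10819 in WT mycelium. AN0369, with an aminopeptidase domain, had 12896 in Δ*pkaA* mycelium and 28369 in WT mycelium, and AN5812, an aminopeptidase with an epoxide hydrolase activity in its orthologs, was just past the limit with 4636 in Δ*pkaA* mycelium and 9333 in WT mycelium. The 2 remaining members past 2-fold, AN7515 and AN7789, had averages below 10.

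**Figure D3:**
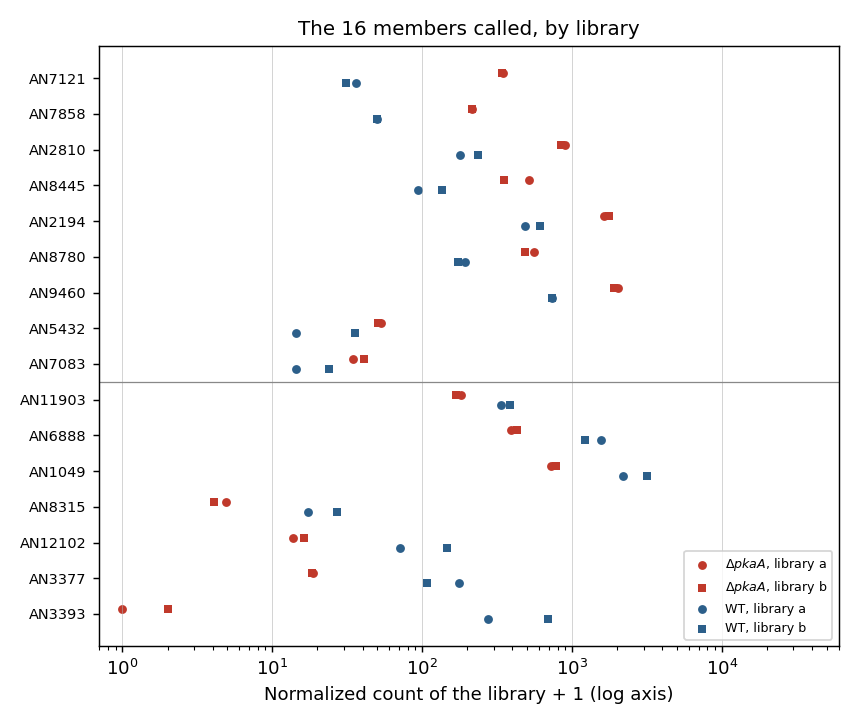
Normalized count plus 1 of each recovered library, on a logarithmic axis, for the 9 members that rose (above the grey line) and the 7 that fell (below it), with Δ*pkaA* libraries in red and WT libraries in blue (circles library a, squares library b). No red point overlaps the blue points of the same gene, and the pairs of blue points lie furthest apart for AN3393, AN12102 and AN5432.

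Among the 9 members that rose, AN7121, with a metallocarboxypeptidase domain, had the largest difference. Its normalized counts were 345 and 341 in the Δ*pkaA* libraries, against 35.4 and 30.2 in WT libraries (log2 difference 3.35 ± 0.20, SE, adjusted p = 1.92e-05). AN7858, with an aspartic-type endopeptidase domain, had 215 and 214 in the Δ*pkaA* libraries, against 48.8 and 48.9 in WT libraries (2.11 ± 0.19, SE, adjusted p = 0.000112). The libraries of one strain nearly coincided for both genes. AN2810 (*admA*), a metallopeptidase named after the ADAM family of animal membrane proteases, had 895 and 838 in the Δ*pkaA* libraries, against 177 and 234 in WT libraries (2.08 ± 0.16, SE, adjusted p = 6.13e-05). AN8445, a putative aminopeptidase Y, the name of a vacuolar enzyme in yeast, had 514 and 348 in the Δ*pkaA* libraries, against 92.9 and 135 in WT libraries (1.91 ± 0.26, SE, adjusted p = 0.000701). Here the libraries of each strain differed more, without overlap between the strains. AN2194, with a serine-type endopeptidase domain, had 1634 and 1768 in the Δ*pkaA* libraries, against 483 and 607 in WT libraries (1.65 ± 0.14, SE, adjusted p = 7.54e-05).

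Genes for a mitochondrial protease and for a signal peptidase stood among the smaller rises. AN8780, whose orthologs are mitochondrial serine endopeptidases, had 560 and 482 normalized counts in the Δ*pkaA* libraries, against 192 and 172 in WT libraries (1.51 ± 0.15, SE, adjusted p = 0.000175). AN9460, whose orthologs belong to the signal peptidase, which removes the leader of proteins entering the endoplasmic reticulum, had 2016 and 1899 in the Δ*pkaA* libraries, against 732 and 732 in WT libraries (1.42 ± 0.10, SE, adjusted p = 3.93e-05). Both rises were many times their standard errors. The last 2 calls were near the thresholds. AN5432, with a serine-type peptidase domain, had 52.0 and 49.9 in the Δ*pkaA* libraries, against 13.4 and 34.4 in WT libraries (1.20 ± 0.45, SE, adjusted p = 0.0495). AN7083 (*fma-AT*), a predicted aminopeptidase, had 33.3 and 39.7 in the Δ*pkaA* libraries, against 13.4 and 22.9 in WT libraries (1.01 ± 0.36, SE, adjusted p = 0.0438). Both calls depended on single libraries, in fits where the lone library of a strain is assumed to vary like the other strain's. AN5432 had log2 differences of 1.17 (adjusted p = 0.187) without Δ*pkaA* library a, 1.23 (0.172) without Δ*pkaA* library b and 0.55 (0.128) without WT library a, where it was not called, and 1.85 (0.000373) without WT library b. AN7083 was not called without Δ*pkaA* library a (1.13, adjusted p = 0.117), Δ*pkaA* library b (0.89, 0.199) or WT library a (0.65, 0.126).

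The 2 members furthest above the WT were again without a test, since their Δ*pkaA* means exceed the limit of recovery. AN9372, with a serine-type peptidase domain, had a mean of 3714 in Δ*pkaA* mycelium, against 46.2 in WT mycelium with libraries at 26.8 and 65.6, so it was 80.4-fold higher. AN10986, whose orthologs are vacuolar carboxypeptidases, had a mean of 3353 in Δ*pkaA* mycelium, against 42.8 in WT mycelium with libraries at 46.0 and 39.6, so it was 78.4-fold higher. Per 1000 bases of gene span, AN9372 stood at 1978 mean normalized counts in Δ*pkaA* mycelium and 24.6 in WT mycelium, and AN10986 at 1756 in Δ*pkaA* mycelium and 22.4 in WT mycelium. A fit chosen after the data were seen, which took, for higher means, the whole-read solution with the libraries closest to each other, gave log2 differences of 6.43 ± 0.37 for AN9372 and 6.26 ± 0.14 for AN10986 (SE, limma adjusted p = 2.17e-05 and 1.79e-06). That choice makes the libraries look alike, so these p-values are too small. In the deposited coordinates AN9372 lies at 438563 to 440440 of chromosome VIII and AN10986 at 2429645 to 2431554 of chromosome IV.

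The other members higher in Δ*pkaA* mycelium by their means included an enzyme of another metabolism. AN10444, a gamma-glutamyl transpeptidase linked to sexual development, matched the words of the rule through the end of its name, and the known enzymes of this kind act on glutathione. Its mean was 15658 in Δ*pkaA* mycelium, against 2054 in WT mycelium with libraries at 1923 and 2185, so it was 7.62-fold higher and the most abundant of the 18. AN2572 (*dppV*), a putative dipeptidyl-peptidase, a type that removes dipeptides from the start of a chain, had a mean of 2759 in Δ*pkaA* mycelium, against 544 in WT mycelium with libraries at 444 and 643. AN3403, with a metallopeptidase domain, had 3736 in Δ*pkaA* mycelium, against 873 in WT mycelium with libraries as far apart as 520 and 1227. The aspartic endopeptidase AN2157 had 7880 in Δ*pkaA* mycelium and 2196 in WT mycelium, and the aspartic-type AN1573 had 2397 in Δ*pkaA* mycelium and 725 in WT mycelium. AN3882, with a cysteine-type endopeptidase domain, was at the limit with 2535 in Δ*pkaA* mycelium and 1257 in WT mycelium. AN1320, with a serine-type peptidase domain, was too low for the test, with 34 reads in Δ*pkaA* mycelium and 3 in WT mycelium, a ratio of 11.3 with a 95% counting interval of 3.57 to 57.8.

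Sorted by catalytic type, every type with more than 4 members held genes past 2-fold in both directions, as genes in general did. Over all genes, 17.9% were at least 2-fold higher and 18.6% lower by the means. Of those tested, 17.1% rose and 18.3% fell, and no type was tested against these shares. Of 20 serine-type members, 5 were higher and 4 lower in Δ*pkaA* mycelium by the means, with 3 rises and 1 fall among the 9 tested. That fall was AN12102, whose text also names negative regulation of catalytic activity. Of 11 aspartic members, 3 were higher and 3 lower, with 1 rise and 1 fall among the 5 tested. Yet the summed means of the aspartic members stood at a ratio of 0.567 and those of the serine members at 0.607, with AN8102 and AN6487 the aspartic members and AN10030 and AN2555 the serine members that contributed most to the lower sums. Of 28 metallo members above 0, 3 were higher and 4 lower, with 2 rises and 3 falls among the 15 tested. The 4 cysteine members all had ratios above 1, from 1.02 for AN0256, the calpain-like protease that activates the pH regulator PacC, to 2.02 for AN3882. Over all genes, 5216 of the 10545 listed above 0 had such a ratio. Of the 4, only AN0256 could be tested, and it was not called. Another 37 members above 0 had no catalytic type in their text, and 6 of these were higher and 8 lower. Among these were AN7159, at 839 in Δ*pkaA* mycelium and 26658 in WT mycelium, the trypsin-like AN2366 and the carboxypeptidase AN2237. The counts, sums and largest contributors given for a type therefore cover only members whose text names it.

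By the end of the chain they act on, the members also split in both directions. Of 6 carboxypeptidases, 2 were more than 10-fold higher in Δ*pkaA* mycelium (AN10986 and AN7121), 3 were lower (AN2555, AN2237 and AN1426), and AN5442 (*cp3*), the putative carboxypeptidase Y, a vacuolar enzyme in yeast, had 17693 in Δ*pkaA* mycelium and 19093 in WT mycelium. Past 2-fold were thus 5 of 6, beside 36.5% of all genes, a count over a small list that was not tested. Of 17 aminopeptidases, 2 were higher and 4 lower, and 11 were within 2-fold. Of 27 endopeptidases, 5 were higher and 5 lower, and the 5 dipeptidyl-peptidases above 0 split into 1 higher, 2 lower and 2 within 2-fold. Over all genes, 17.9% were higher and 18.6% lower, and whether these groups differ from that was not tested.

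**Figure D4:**
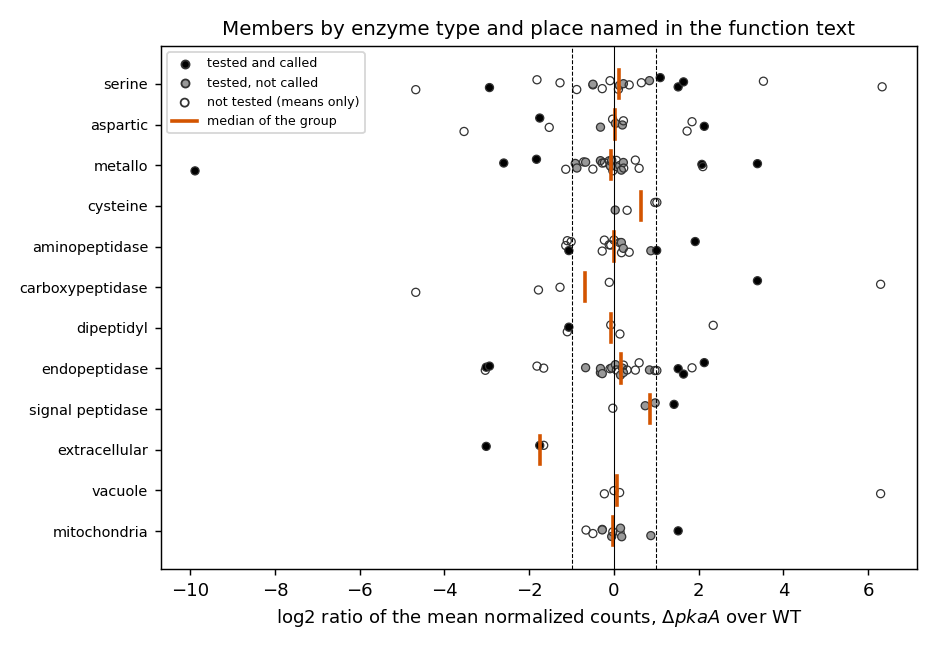
Log2 ratio of the mean normalized counts, Δ*pkaA* strain over WT, for members grouped by enzyme type or place in the function text, where a gene can stand in several groups. Black points were tested and called, grey points were tested and not called, open points have means only, orange bars are medians, and the dashed lines mark a 2-fold difference. Both directions appear in most groups, whereas the 3 extracellular members all lie left of the lower dashed line.

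A place is named in the text of some members only, and no test was made by place. The 3 members with an extracellular place, AN3377, AN6888 and AN7515, were all at least 2-fold lower in Δ*pkaA* mycelium by the means. Over all genes that share was 18.6%. The 2 that could be tested fell, beside 18.3% of all genes tested, and so few members show no pattern of the place. AN7515, a second zymogen-activating endopeptidase, was near the floor, with means of 3.98 in Δ*pkaA* mycelium and 12.6 in WT mycelium. Of the 4 members with the vacuole in their text, 3 were within 2-fold and AN10986 was the exception. The vacuolar aminopeptidase AN3918 had the most even values of all, 5565 in Δ*pkaA* mycelium and 5564 in WT mycelium. Of the 11 mitochondrial members, 10 were within 2-fold and AN8780 rose. They include AN1104, whose text names the mitochondrial processing peptidase complex. The text of AN3149, AN6841 and AN11960 names instead the peptidase complex of the mitochondrial inner membrane. Of the 8 cytosolic members, 7 were within 2-fold and AN5812 was lower. Over all genes, 63.5% were within 2-fold. The 3 extracellular members are not a count of secreted proteases, nor the 4 vacuolar members one of vacuolar enzymes. AN8445, AN2903 and AN5442, likened above to vacuolar enzymes of yeast, have no vacuole in their text. AN8445 rose, and AN2903 and AN5442 were within 2-fold.

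The 4 genes with signal peptide processing in their text, which are not all of one enzyme, had a median log2 ratio of 0.86. AN9460 rose past 2-fold, and AN1525 and AN11133 had log2 differences of 0.97 (adjusted p = 0.00031) and 0.73 (adjusted p = 0.00377) within it. The text of these names the signal peptidase complex. That of the fourth, AN4557, names instead a protease complex of the mitochondrial inner membrane. Its means were 8100 in Δ*pkaA* mycelium and 8250 in WT mycelium. AN3583 (*kexB*), a subtilisin-like protease whose relative in yeast processes precursors in the Golgi, had 5190 in Δ*pkaA* mycelium and 3312 in WT mycelium, inside the limit.

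Of the other members with high or known roles, many differed little. AN2903, AN4282 and AN1638, whose proteins are in the study's list of proteins precipitated with PkaA, had ratios of Δ*pkaA* to WT of 0.978, 0.925 and 0.826 between means of 8169 to 22807 in Δ*pkaA* mycelium and 8834 to 23315 in WT mycelium. The alkaline serine protease AN10030, with the highest mean of any member in both strains, had 30493 in Δ*pkaA* mycelium and 56047 in WT mycelium, a ratio of 0.544 that lies just inside the 2-fold limit. A total of 13 members lay within 10% of that limit, 6 of them inside and 7 outside, so the count of 38 depends on where it is set. Of the 12 members with a gene symbol in the reference table, 6 were within 2-fold, among them *admB* (AN5619), *cym1* (AN3853) and *lap1* (AN7035).

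Peptides released outside the cell are taken up by transporters. Of 7 genes with peptide transport in their text, 1 was listed at 0 in both strains, 4 were at least 2-fold lower and 1 at least 2-fold higher, and the 2 that could be tested fell. Over all genes, 18.6% were at least 2-fold lower by the means and 18.3% of those tested fell, and whether the transporters differ from genes in general was not tested. AN7597 had 65.7 and 55.0 normalized counts in the Δ*pkaA* libraries, against 2890 and 2696 in WT libraries (log2 difference -5.51 ± 0.14, SE, adjusted p = 2.56e-06). The more abundant AN3408 had means of 3272 in Δ*pkaA* mycelium and 27742 in WT mycelium, and AN8915 had 3151 in Δ*pkaA* mycelium and 21762 in WT mycelium, both without a test. AN8374 fell by less, with 40.2 and 34.6 in the Δ*pkaA* libraries, against 78.5 and 85.4 in WT libraries (-1.11 ± 0.24, SE, adjusted p = 0.00612). The exception AN7702 had 5 reads in Δ*pkaA* mycelium and 1 in WT mycelium, a ratio of 5.01 with a counting interval of 0.56 to 237, and the seventh, AN8903, had 2098 in Δ*pkaA* mycelium and 1317 in WT mycelium.

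Of 6 regulators of protease genes or of nitrogen, pH and carbon control, 3 were at least 2-fold lower by the means and 3 within 2-fold. Over all genes, 18.6% were at least 2-fold lower. Only AN4255 could be tested. The text of the hexokinase-like proteins does not say whether they raise or lower protease genes. AN1414 (*xprG*), a transcriptional activator of extracellular proteases, had means of 1592 in Δ*pkaA* mycelium and 10424 in WT mycelium. AN4255 (*hxkC*), a hexokinase-like protein that acts on the same genes, fell to 1113 and 1309 normalized counts in the Δ*pkaA* libraries, against 3483 and 4012 in WT libraries (-1.63 ± 0.13, SE, adjusted p = 6.34e-05). AN2180 (*xprF*), a second hexokinase-like protein, had 6985 in Δ*pkaA* mycelium and 4789 in WT mycelium. AN6195 (*creA*), the carbon catabolite repressor, had 4880 in Δ*pkaA* mycelium and 17652 in WT mycelium, whereas AN8667 (*areA*), the nitrogen regulator, had 3929 in Δ*pkaA* mycelium and 3246 in WT mycelium, and AN2855 (*pacC*), the pH regulator, had 3103 in Δ*pkaA* mycelium and 2493 in WT mycelium. The part of these levels in the protease genes was not tested. Of the 2 proteases set aside by number, AN5558 had 256 and 297 in the Δ*pkaA* libraries, against 1000 and 1825 in WT libraries (-2.29 ± 0.27, SE, adjusted p = 0.000351), and AN7962 had 1.96 and 6.11 in the Δ*pkaA* libraries, against 46.9 and 119 in WT libraries (-4.04 ± 0.59, SE, adjusted p = 0.00103). Both fell. The only gene with a protease inhibitor text, AN8404, had 24 reads in Δ*pkaA* mycelium and 5 in WT mycelium, a ratio of 4.81 with a 95% counting interval of 1.80 to 16.1.

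The 96 members found in the reference gene table lay on all 8 chromosomes, from 6 on chromosome III to 19 on chromosome II, and none of these 96 was the direct neighbour of another. Of the 36 members past 2-fold with a known place in the gene order, 20 had an adjacent gene past 2-fold in the same direction, or 55.6%, beside 56.1% of all such genes, a share close to that of genes in general. One example is AN7858 on chromosome II, whose neighbours AN7857, a predicted GPI-anchored protein, and AN7859 had log2 ratios of 2.06 and 4.40. AN10986 lies beside the peptide transporter gene AN7702, which had the few reads given above.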

How the data were processed

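RNA-seq was done on 2 samples of the Δ*pkaA* strain and 2 of the WT. The authors made libraries with a TruSeq v2 kit, read 100 bases, used bowtie2 for alignment to the AspGD genome of *A. nidulans*, HTSeq for counting and DESeq for their comparison of the strains. The versions, the genome release and the handling of technical replicates are not stated in the sources used here. The signal that the authors deposited is a mean normalized count per gene and strain, with 4 decimals. A header in a supplementary table of the study gave the strain of either column. The authors also deposited a fold change, a p-value and a q-value, in 3 columns, which were not used, nor was a second deposited table, since what its sides hold is not given.

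Reads per library were recovered from the means, which are sums of whole multiples of 2 steps per strain. A solution was accepted within 6e-05 if it was the only one, or the only one with the libraries within 2-fold, for means up to 2000 in the Δ*pkaA* strain (99.9% resolved) and 4000 in the WT (99.9%). The second rule keeps out libraries further apart than 2-fold where several solutions exist. The recovered reads sum to 4295510 and 4138770 in the Δ*pkaA* libraries and to 8637050 and 7950700 in the WT libraries, and cover only genes of low and middle expression, so they are not library depths. The test was limma on log2(value + 1), its variances moderated towards a trend with the mean, over genes with an average of at least 10, with Benjamini-Hochberg adjustment. A count test was not run, since whole reads were resolved for genes of low and middle expression only. Both steps were tested on simulated data. Where few reads were counted, 95% intervals of ratios are exact and cover counting error only.

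Members were found in the deposited function text, whose words also gave the enzyme types. The members, lists and tests were chosen with earlier results of these data known. Named were, among members averaging at least 100, the 8 that rose most and the 8 that fell most, the 5 members of highest average, genes at 0 in 1 strain only, the largest rise and fall of each type, 3 genes of the study's immunoprecipitation list and those with symbols. AN5432, AN8315, AN1320, AN7515, AN7789, AN3918, AN0256, AN3882, AN1525, AN11133, AN4557, AN6426 and the remaining called or lower members were named after their values were seen. Gene order, chromosomes and symbols came from RefSeq (ASM1142v1), to which 96 of 102 members matched. Its coordinates were not used, and starts and stops are the authors'. The alternatives were other pseudocounts, filters, fold limits and scalings, voom weights, no trend, each library left out and other rules of recovery. The test used limma 3.58.1 under R 4.3.3, the recovery SciPy 1.17.1, NumPy 2.4.6 and pandas 2.3.3 under Python 3.11.15, and the plots matplotlib 3.10.9.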

Additional observations from a re-analysis of the deposited data

How the results depend on the processing

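The 16 calls among the 46 members tested numbered 14 to 16 with one library left out (7 to 9 rises, 7 falls). AN5432 and AN7083 were the members lost there, and also without the filter on low values, where AN1320 and AN7515 were gained. AN5432 was also lost with a pseudocount of 0.5 (adjusted p = 0.0529), no trend (0.0778), median centring (0.0516), single-solution means (0.0582) and the closest solution (0.0511), beside 0.0495. A fold limit of 1.5 gave 25 calls (14 rises, 11 falls), a limit of 4 gave 7 (3 and 4), and no fold limit gave 27 (15 and 12). With only averages of at least 100 fitted, 11 of 39 members were called (7 rises, 4 falls). With 2 alternatives chosen after seeing the data, 13 of 28 members were called where each mean had a single whole-read solution, and 24 of 68 (14 rises) where the closest solution was taken to higher means. By the deposited means, 18 members passed a limit of 4, with 9 in each direction. With means rescaled to the same sum, 20 were higher and 18 lower, beside 18 and 20. Of 116 values of 9 named members under the alternatives, 0 reversed and 5 were weaker, all of AN7083, and AN5432 is not among the 9. Among these 5 was median centring, where AN7083 had a log2 difference of 0.995 (limma adjusted p = 0.046). There it counts as called only if the 2-fold limit stays on the deposited means. The same holds with a pseudocount of 10 for AN7083 (log2 difference 0.742) and AN5432 (0.919). It also holds for AN11903 without WT library b (-0.953). The values of AN7083 and AN11903 there were not counted as weaker.

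No paired analysis was possible because the recovered libraries carry no replicate number. Depth limits the low members: 6 had an average below 10 and were fitted only without the filter, and their ratios rest on few reads. The median ratio of library a to b at means of 5 to 20 was 1.08 for Δ*pkaA* and 0.82 for WT, with a median SD between libraries of 0.35 and 0.41 (log2). Above the limits of recovery, means carry no error.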
